A study of Mus musculus with 9 samples.

Results

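Plk2, Aen and Rps27l are 3 genes that the transcription factor p53 is known to activate, and they are 3 of the 2402 genes in a table of normalized counts from 9 libraries of mouse bone marrow cells. They were chosen by name. The study compared megakaryocyte progenitors (MkP, the cells that give rise to platelet-producing megakaryocytes) of different origin and age with each other and with stem cells. The labels list 2 samples of old Tom+ MkP, 2 of old Tom+ haematopoietic stem cells (HSC), 2 of old GFP+ MkP and 3 of young GFP+ MkP. All came from male C57BL/6 mice that carry a Flt3-driven Cre and the mTmG reporter, aged 3 months (young) or 18 to 20 months (old; another field of the labels gives only the upper of these ages). Cells of such a mouse start out red (Tom+) and turn green (GFP+) for good, descendants included, once Cre has been made, so the colour records the history of Flt3 expression. Both MkP and HSC were sorted as lineage-negative, cKit+ and CD150+ cells, MkP also as Sca1- and CD41+, HSC also as Sca1+ and Flk2-. The labels do not say whether samples came from separate or pooled animals. The rows of the table carry no sample names, so no library could be tied to a group, and no comparison of age, reporter colour or cell type was made. Libraries are numbered 1 to 9 by row, as names only.

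p53 is a transcription factor that is stabilised by DNA damage and other stress and switches on genes of cell cycle arrest, DNA repair and apoptosis. In haematopoietic stem cells it is known for its part in quiescence and in the response to irradiation. Plk2 encodes a polo-like kinase that is also known as a serum-inducible gene and acts in centriole duplication. Aen encodes the apoptosis-enhancing nuclease, an exonuclease that digests DNA and RNA. Rps27l encodes a close relative of the ribosomal protein S27 and is known to act on the p53 regulator Mdm2.

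The sequences near the starts of the 3 genes are shown as a description. Whether they bear on the levels in these libraries was not tested. Sequences are from RefSeq (GRCm38.p6, the assembly of mm10), and gene models from GENCODE M21. Each annotated start in that table has 1 window, from 250 bases before it to 50 after it, and all 3 genes were matched. The 20-base p53 consensus site without a spacer reads the same on both strands, and each window was searched for its closest match. In Rps27l (chromosome 9, 66946086 to 66949516, plus strand) the closest match was in the window of the start at 66946413. It had 1 mismatch, at position 10 of the site counted from its 5′ end. It lies in an intron, outside every annotated exon. Of 32851 windows in the table, 29 (0.0883%) held a match with at most 1 mismatch. The other Rps27l window, of the start at 66946086, had 4 mismatches in its closest match, and 30.2% of windows held a match with at most 4. In Aen (chromosome 7, 78895854 to 78911209, plus strand) the closest match had 3 mismatches, in the last 3 bases, and lies in the untranslated first exon. Of all windows, 6.29% held a match that close. In Plk2 (chromosome 13, 110395046 to 110400844, plus strand) the closest match in the window had 5 mismatches, which says nothing of sites outside it. The share of windows with at most 5 mismatches was not counted. The Plk2 window held the 8 bases TGACGTCA, the cAMP response element, a palindrome that starts 62 bases before the RefSeq start at 110395044, and 1.79% of windows held it. Neither the Aen nor the Rps27l windows did. Besides the p53 site, this element was the only motif searched for. In the first and second line below, capitals mark the closest match to the p53 site, and in the third the cAMP response element. A match is a description of letters and does not show binding.
Rps27l, intron, chr9:66946246-66946345, plus strand: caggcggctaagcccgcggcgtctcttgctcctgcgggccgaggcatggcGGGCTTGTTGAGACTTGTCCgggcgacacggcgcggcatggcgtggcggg
Aen, first exon, chr7:78895932-78895961, plus strand: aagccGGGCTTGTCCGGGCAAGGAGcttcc
Plk2, bases before the start, chr13:110394894-110395043, plus strand: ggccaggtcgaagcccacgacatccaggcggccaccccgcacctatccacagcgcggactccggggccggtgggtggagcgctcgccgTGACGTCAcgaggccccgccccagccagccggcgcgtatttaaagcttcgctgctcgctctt

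The libraries were described by their level of Ly6a, which encodes Sca1, the surface antigen that the sort required of stem cells and excluded in progenitors. Libraries 3 and 4 had 4256 and 5772 normalized counts of Ly6a, and the other 7 libraries had at most 187. No library lay between these values and the chosen level of 1000. Libraries 3 and 4 are called Ly6a-high here and the other 7 Ly6a-low. These are names for measured levels, not the study's groups, no mean was taken over them, and they were not tested against each other. A gene of a list is called measured here if the table holds it, and absence from the table does not show that it was not expressed. A filter for low values kept the 2341 genes that reached 10 normalized counts in 2 or more libraries. Of these, 51.0% were higher in both Ly6a-high libraries than in every Ly6a-low library (above) and 40.8% were lower in both than in every Ly6a-low library (below), and the marker counts have to be read beside these shares. Ly6a itself left out, 12 of 13 measured stem cell markers lay above (10 under median-of-ratios scaling, 11 under quantile normalization), with summed levels of 42820 to 51538 against 4742 to 16732 normalized counts. The remaining marker, Gfi1b, was lower there. Of 16 measured megakaryocyte markers, 15 lay below (14 when scaled to the table total or quantile normalized, where Fli1 also overlapped), with sums of 20661 to 29697 against 154103 to 275145. Of the other cell types' markers, 3 of 5 erythroid genes and the macrophage gene Cd5l lay below, 2 of 4 granulocyte and monocyte genes lay above and 2 below, and 2 of the 4 lymphocyte genes that passed the filter lay above and 1 below. The mast cell gene Fcer1a overlapped. Sptb of the erythroid list, Cebpa of the granulocyte and monocyte list and Cd5l were at 0 in both Ly6a-high libraries. Fewer cells of a type and less RNA per cell cannot be told apart in such bulk samples. Depth over the table's genes ranged between 1790670 and 4373460 reads a library, and 1 read was worth 0.724 to 1.96 normalized counts.

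The 3 p53 targets did not go one way. Plk2 was higher in both Ly6a-high libraries than in any Ly6a-low library, and Aen and Rps27l were lower in both than in any Ly6a-low library. This is a description of 2 libraries against 7 under the deposited scaling. It has to be read against the table, in which such separation is common. All 3 targets passed the filter, and of the 2341 genes that did, 51.0% lay above, 40.8% below and 91.7% in either direction. The directions of these 3 genes are thus each shared by a large part of the table, and the sizes and the order of the libraries carry what follows. With libraries scaled to their table totals, 55.6% of all genes lay above and 23.9% below, and Aen no longer stood apart, as given with its values. Of the genes that stood apart, 69.9% lay above under that scaling, against 55.6% under the deposited one.

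**Figure D1:**
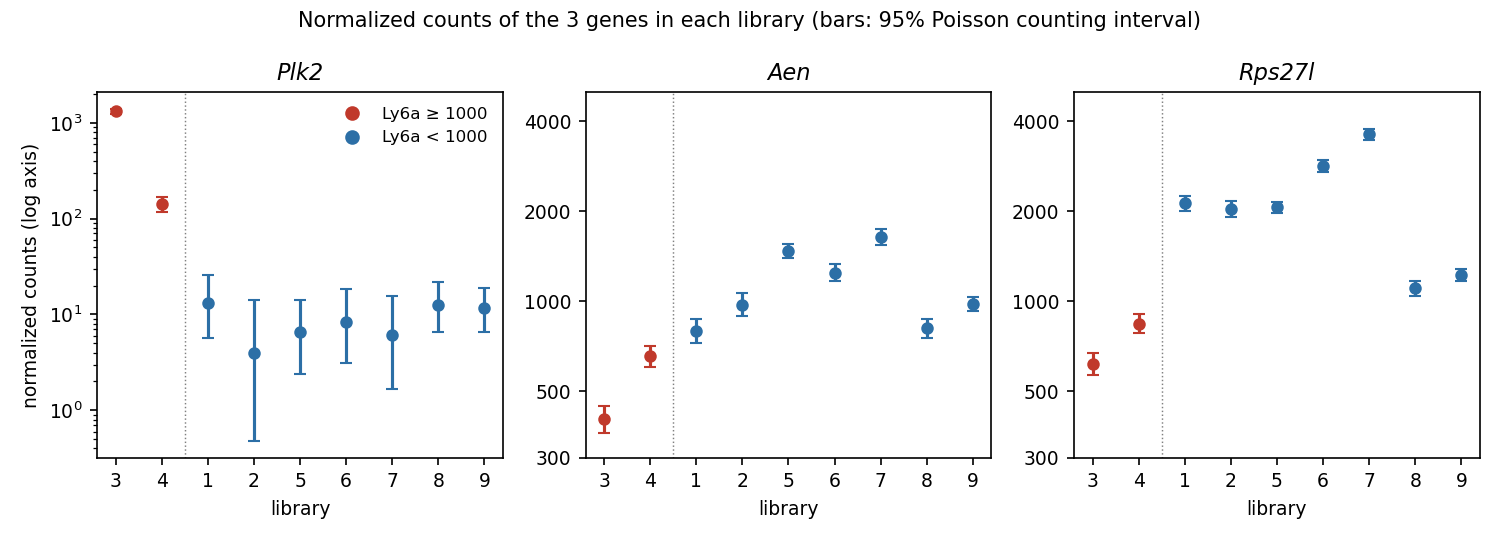
Normalized counts of Plk2, Aen and Rps27l in each of the 9 libraries on log axes, with 95% Poisson counting intervals as bars; red points are the 2 libraries with Ly6a at or above 1000 and blue points the other 7. Plk2 reached 1327 and 141 in libraries 3 and 4 and stayed at or under 13.1 elsewhere, while Aen and Rps27l had their lowest values in libraries 3 and 4.

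Plk2, the kinase, had 1327 normalized counts in library 3 and 141 in library 4. In the Ly6a-low libraries it had 13.1, 3.93, 6.52, 8.39, 6.14, 12.6 and 11.6 normalized counts in libraries 1, 2, 5, 6, 7, 8 and 9. The gene was thus near the limit of detection in all 7, where it had between 2 and 16 reads, against 1125 and 123 reads in libraries 3 and 4. The highest library exceeded the lowest 338-fold, with an exact 95% counting interval of 93.4 to 2795, since the lowest had 2 reads. Such intervals cover counting error only, not biological variation or the choice of the libraries compared. The nearest values of the 2 sides, 141 in library 4 and 13.1 in library 1, differed 10.7-fold (interval 5.27 to 25.4).

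The 2 Ly6a-high libraries differed from each other in Plk2 almost as widely as library 4 differed from the nearest Ly6a-low library. Library 3 had 9.43 times the level of library 4 (interval 7.82 to 11.5), whereas its Ly6a was the lower of the pair. The range of Plk2 over the 9 libraries was among the widest of the table. With 1 added to each value it was 269-fold (149-fold with 5 added), the median over the 2341 genes was 6.16-fold, and 33 genes (1.41%) had a wider range. Of the 1193 genes that lay above, 51 (4.27%) had a larger ratio of nearest values than Plk2. Without library 3 the range of Plk2 was 28.7-fold, and without library 4 the nearest values differed 94.1-fold with 1 added, so the size rests on these 2 libraries.

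Among the 7 Ly6a-low libraries the spread of Plk2 could not be told from counting error. A chi-square test of reads against 1 rate per gene, fitted on all 2341 genes and adjusted by the Benjamini-Hochberg method, gave an adjusted p of 0.46 for Plk2 over these 7 libraries. It called 83.1% of genes there, among them Aen and Rps27l. The 7 libraries had 54 reads of Plk2 together. Over all 9 libraries the same test called 98.7% of genes, including the 3 described here. It compares libraries and not conditions. It takes the deposited scaling as given.

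Aen, the nuclease, had 403 normalized counts in library 3 and 656 in library 4. In the Ly6a-low libraries it had 797, 975, 1473, 1245, 1640, 812.5 and 978.5 normalized counts in libraries 1, 2, 5, 6, 7, 8 and 9. Libraries 5, 6 and 7 were the highest, and the other 4 Ly6a-low libraries lay closer to library 4 than those did. The highest library exceeded the lowest 4.06-fold (interval 3.59 to 4.60), against a range of at least 4-fold in 66.4% of genes and a wider one than that of Aen in 65.7%. Library 4 had 0.822 of the level of library 1, its nearest Ly6a-low neighbour (interval 0.727 to 0.930). Of the 954 genes that lay below, 80.9% stood farther apart. The position of Aen depended on the scaling. Scaled to the table's total reads (CPM of the table's genes only), it had 191 and 280 in libraries 3 and 4. The Ly6a-low libraries had 241 to 352, so library 4 lay among them. Under median-of-ratios scaling and quantile normalization Aen lay below again. All these scalings were computed from the 2402 genes of the table, so a table total is not the depth of a whole library. Which scaling comes closest to the amounts of RNA was not tested.

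Rps27l, the ribosomal protein relative, had 618 normalized counts in library 3 and 841 in library 4. In the Ly6a-low libraries it had 2123, 2039, 2058, 2827, 3614, 1104 and 1226 normalized counts in libraries 1, 2, 5, 6, 7, 8 and 9. Libraries 8 and 9 were thus nearer to the Ly6a-high libraries than to the other 5. The highest library exceeded the lowest 5.85-fold (interval 5.32 to 6.44), close to the middle of the table, since 51.8% of genes had a wider range. Library 4 had 0.762 of the level of library 8, its nearest neighbour (interval 0.692 to 0.838), and 67.9% of the genes that lay below stood farther apart. Rps27l lay below under all 4 scalings. In CPM of the table's reads it had 293 and 359 in libraries 3 and 4, against 383 to 744 in the Ly6a-low libraries. Of the 526 stretches of 50 bases in its longest coding transcript, 72 (13.7%) also occur in transcripts of 4 other genes with provisional symbols, so part of its reads could have come from them or been left out. Aen and Plk2 share no such stretch with another gene. None of the 3 genes overlaps another annotated gene.

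**Figure D2:**
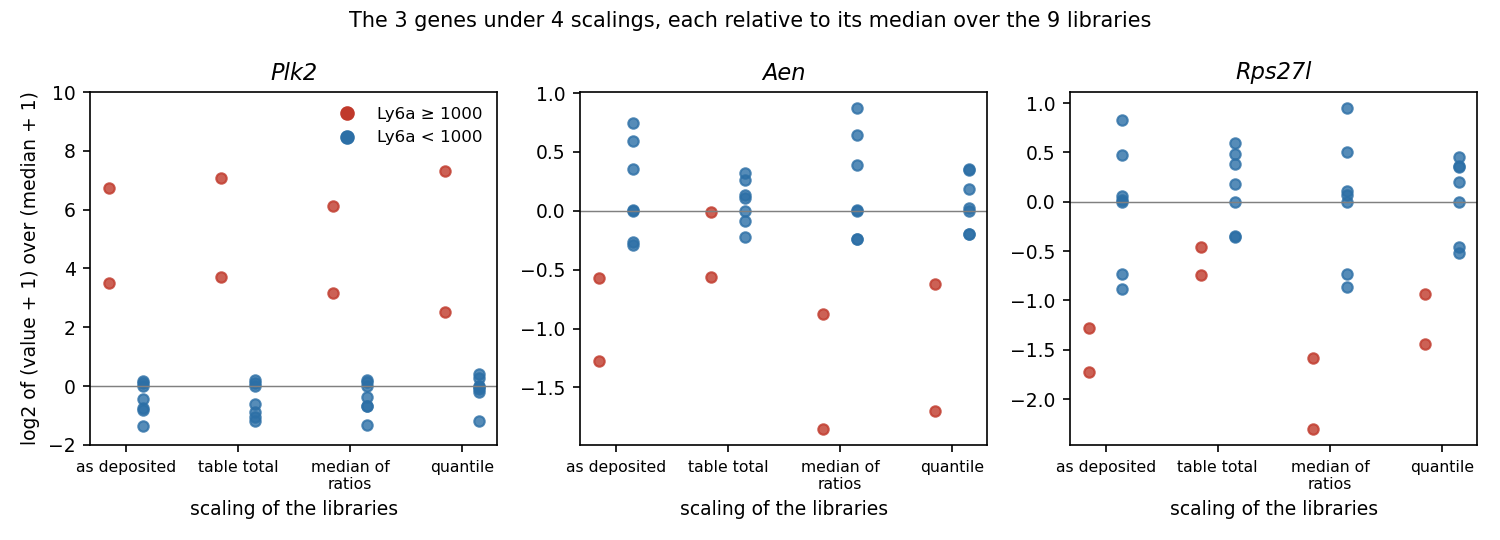
Plk2, Aen and Rps27l under 4 scalings of the libraries, as log2 of each value with 1 added over the gene's median with 1 added; red points (left of each pair) are the 2 libraries with Ly6a at or above 1000 and blue points the other 7. Plk2 stays above and Rps27l below under all 4, whereas 1 red point of Aen lies among the blue ones when libraries are scaled to the table total.

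The ratio of 2 genes within a library does not depend on how the library was scaled as a whole, and it separates Plk2 from the other 2 genes without that choice. Library 3 had 3.29 reads of Plk2 per read of Aen (interval 2.91 to 3.72), and library 4 had 0.215 (0.175 to 0.261). The Ly6a-low libraries had between 0.00375 and 0.0165 reads of Plk2 per read of Aen. The highest of their intervals ended at 0.0327, below the interval of library 4. The ratio of Plk2 to Rps27l was 2.15 and 0.167 in libraries 3 and 4, against 0.00170 to 0.0114 in the Ly6a-low libraries. Plk2 and the other 2 targets thus changed unequally between the libraries. These are ratios of reads, which also depend on gene length, so they rank libraries and not genes.

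The ratio of Rps27l to Aen gave another order of libraries. It was 1.53 and 1.28 in libraries 3 and 4, against 1.25 to 2.66 in the Ly6a-low libraries, and did not set the Ly6a-high libraries apart. Libraries 1, 2, 6 and 7 had 2.66, 2.09, 2.27 and 2.20 reads of Rps27l per read of Aen. Libraries 5, 8 and 9 had 1.40, 1.36 and 1.25, like libraries 3 and 4. The exact interval was 2.40 to 2.96 in library 1 and 1.17 to 1.35 in library 9, the ends of the range.

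**Figure D3:**
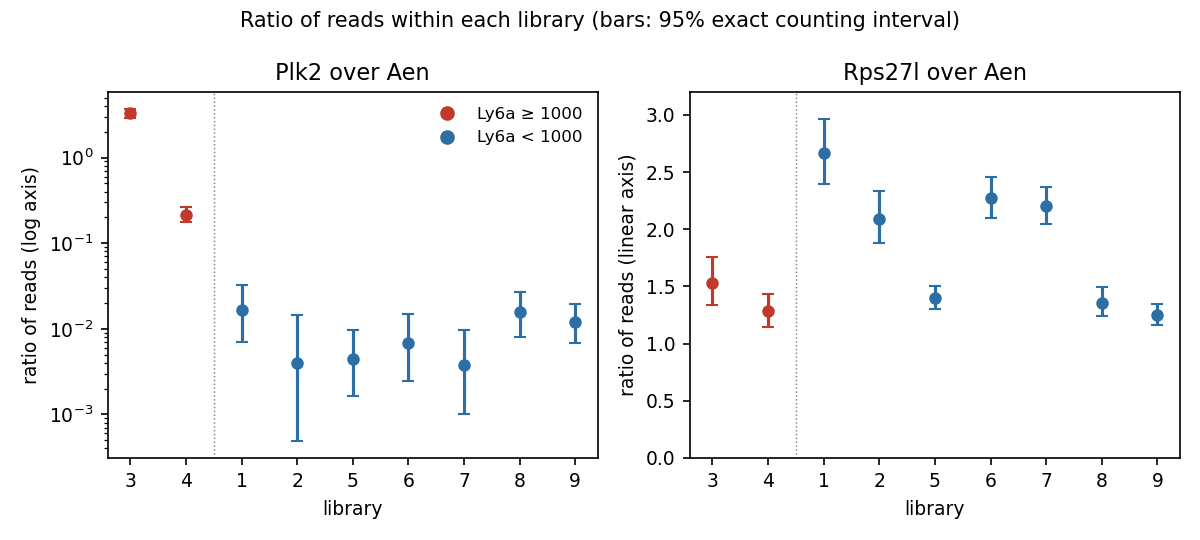
Reads of Plk2 per read of Aen (log axis) and reads of Rps27l per read of Aen (linear axis) in each library, with exact 95% counting intervals as bars; red points are the 2 libraries with Ly6a at or above 1000. The ratio of Plk2 to Aen was 3.29 and 0.215 in libraries 3 and 4 and at most 0.0165 elsewhere, while the ratio of Rps27l to Aen in these 2 libraries lay within the range of the others.

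**Figure D4:**
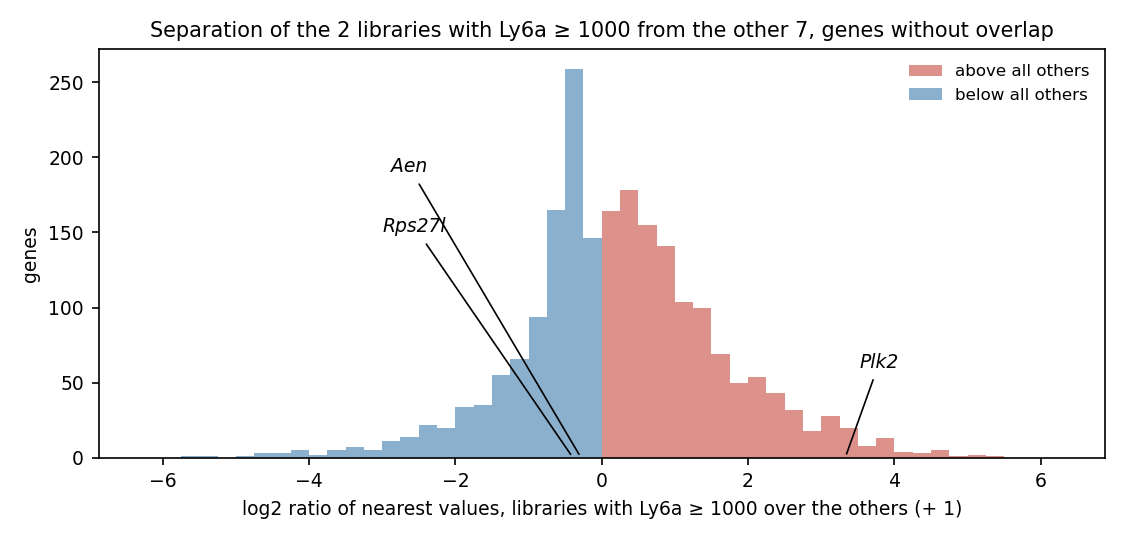
Genes of the table that did not overlap between the 2 libraries with Ly6a at or above 1000 and the other 7, by the log2 ratio of the nearest values with 1 added to each. Plk2 lies in the upper tail of the 1193 genes above, and Aen and Rps27l lie near 0 among the 954 genes below.

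Other p53 targets of the table also lay on both sides. Of 55 listed targets 13 were measured, and all 13 passed the filter and stood apart, as did 91.7% of all genes. Of the 13, 8 lay above and 5 below, or 61.5% and 38.5% of the list against 51.0% and 40.8% of all genes. Why these genes are in the table is not known, so the listed targets outside it cannot be judged. Without Plk2, Aen and Rps27l, the other 10 were 7 above and 3 below. The median range of the 13 was 7.65-fold, against 6.16-fold over all genes. The members that lay above besides Plk2 serve different ends. Perp, a tetraspan membrane protein of p53-dependent apoptosis and of desmosomes, had 254 and 209 normalized counts in libraries 3 and 4, against 3.28 to 34.6 in the Ly6a-low libraries. Xpc, which recognises damaged DNA in nucleotide excision repair, had 664 and 590, against 86.0 to 218. Pml, the organiser of nuclear bodies, had 1332 and 955, against 201.1 to 408. Sertad1, a transcriptional coregulator, had 607 and 649, against 161 to 287, and Cd82, a tetraspanin, had 2557 and 1014, against 99.6 to 612. The antiproliferative gene Tob1 had 106 and 72.1, against 6.14 to 55.0, and the transcriptional repressor gene Bcl6 had 18.9 and 52.6, against 0 to 11.8. Among the Ly6a-low libraries Bcl6 reached 10 only in library 2, so it passed the filter with the help of the Ly6a-high libraries.

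Besides Aen and Rps27l, 3 targets lay below. Psrc1, a microtubule-associated protein of the mitotic spindle, had 9.44 and 27.5 normalized counts in libraries 3 and 4, against 141 to 243 in the Ly6a-low libraries, the widest separation of the 5. Dcxr, a carbonyl reductase, had 123 and 156, against 180 to 296. Tap1, a peptide transporter of antigen presentation, had 2330 and 1873, against 2352 to 3902, so that library 3 differed from the nearest other library by little. Scaled to the table total, Dcxr and Tap1 joined Aen among the Ly6a-low libraries and 2 targets remained below. Under quantile normalization Bcl6, Tap1 and Tob1 overlapped.

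**Figure D5:**
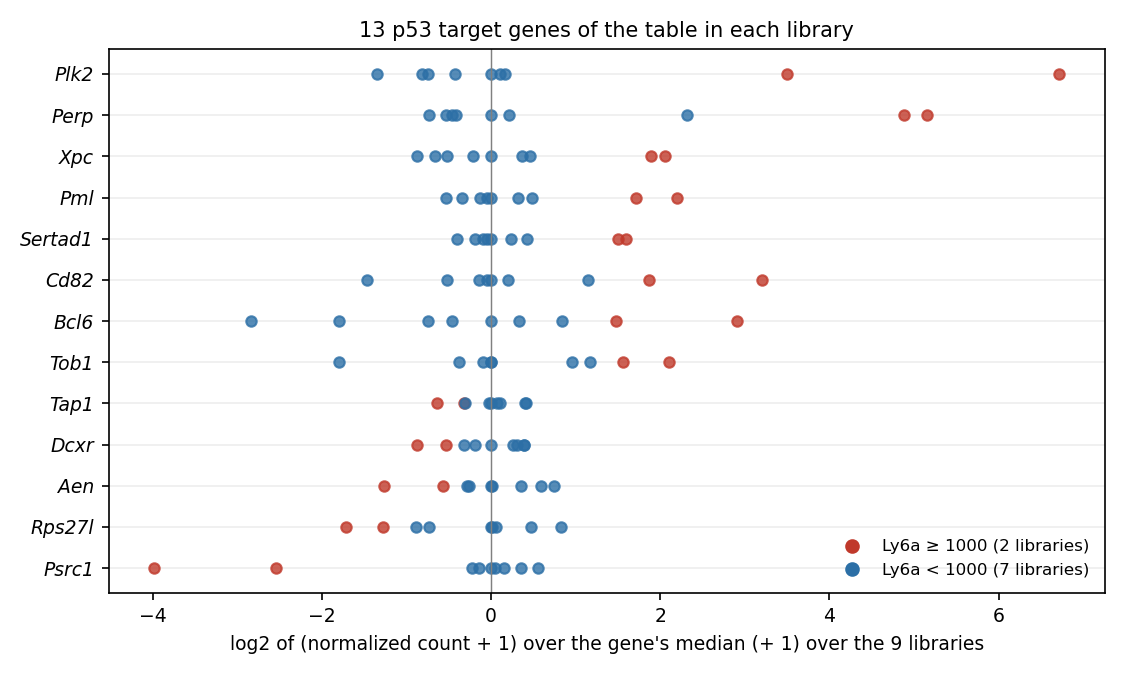
Each of the 13 measured p53 targets in the 9 libraries, as log2 of the normalized count with 1 added over the gene's median with 1 added; red points are the 2 libraries with Ly6a at or above 1000 and blue points the other 7. Red points lie right of all blue points for 8 genes and left of them for 5, with Tap1 nearest to overlap.

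Of 21 listed p53 family members and regulators, 4 were measured. Ndn, which encodes necdin, a growth suppressor known to bind p53, had 2994 and 2546 normalized counts in libraries 3 and 4, against 33.7 to 804 in the Ly6a-low libraries. Trp53bp1, which acts at DNA double-strand breaks, had 99.1 and 75.5, against 38.4 to 71.3, and overlapped under median-of-ratios scaling. The mitotic kinase genes Aurka and Aurkb lay below. Aurka had 67.2 and 197 normalized counts in libraries 3 and 4, against 863 to 2556. Aurkb had 62.5 and 204, against 1413 to 3947. Both are also counted among the G2/M genes, and Ndn among the stem cell markers.

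The relatives of the 3 genes are sparse in the table. Plk1, the polo-like kinase of mitosis, was the other kinase of the family that was measured, and it lay on the other side from Plk2. It had 1280 and 1447 normalized counts in libraries 3 and 4, against 3123 to 8411 in the Ly6a-low libraries. Plk1 is also counted among the G2/M genes. No listed relative of Aen and no other listed ribosomal protein gene was in the table. Whether Rps27l moved with ribosomal proteins was thus not analysed here.

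Other gene groups moved with the targets, and their part in these results was not tested. All 8 measured immediate-early genes, the class to which serum-inducible Plk2 is also counted, lay above, with sums of 20140 to 22013 normalized counts in the Ly6a-high libraries, against 2436 to 4552 in the Ly6a-low libraries; of all genes, 51.0% lay above. Of these, Ier2 had 9471 and 7334 in libraries 3 and 4, against 1247 to 2742. Zfp36 had 4468 and 2708, against 394 to 836, and Junb had 4775 and 6617, against 537 to 889. Under median-of-ratios scaling and quantile normalization Dusp6 overlapped and the other 7 lay above. Fosl2, also of this list, had 28.6 to 62.5 in the Ly6a-high libraries and at most 8.39 elsewhere. It passed the filter through the Ly6a-high libraries alone, which fixed its place above. Plk2 was higher in library 3 than in library 4, as were 5 of these 8 genes, but not Junb, Ier3 or Dusp6. The share of all genes with that order was not counted, so it is no sign of likeness.

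All 20 measured S phase genes and all 16 G2/M genes lay below with Aen and Rps27l, as did 40.8% of all genes (23.9% when scaled to the table total). Their sums in the Ly6a-high libraries were 16321 to 43145 normalized counts for S phase genes, against 97201 to 182417, and 2617 to 5345 for G2/M genes, against 22154 to 62686. Mcm6, a subunit of the replicative helicase, had 3342 and 9920 in libraries 3 and 4, against 19307 to 31988. Rfc2, of the clamp loader, had 1865 and 4542, against 9281 to 21736, and Mcm7 had 2016 and 6135, against 11305 to 20259. Ube2c, of the anaphase-promoting machinery, had 235 and 619, against 3791 to 9113, and cyclin gene Ccnb2 had 146 and 534, against 2619 to 7338. In the cell division genes library 3 was lower than library 4, as it was in Aen and Rps27l. The share of all genes with this order was not counted, so it sets no gene group apart. Among the other p53 targets below, Psrc1 and Dcxr also had it, whereas Tap1 did not. Dtl overlapped when libraries were scaled to the table total, and Chaf1b did under quantile normalization.

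The genes whose profile was most like each target were found by the root mean square difference of log2 values, with 1 added and each gene centred over the 9 libraries. For Plk2 they were Clec14a, a C-type lectin, at 0.60, Mettl7a1 at 0.68 and Vnn1, a pantetheinase, at 0.72, against a median of 2.19 over all named genes. Mettl7a1 had 5534 and 2278 normalized counts in libraries 3 and 4, against 38.4 to 120, whereas Clec14a and Vnn1 were at 0 in most Ly6a-low libraries. Clec14a had 25.2 to 94.4 in the Ly6a-high libraries and at most 2.1 elsewhere, and Vnn1 had 14.9 to 63.7 and at most 1.4. Both passed the filter through libraries 3 and 4 alone. Their likeness to Plk2 thus rests on these libraries and on values near 0, not on a profile over all 9. For Aen they were Ap1s1, a subunit of a clathrin adaptor, at 0.09, Exosc1, of the RNA exosome, at 0.10 and Psmc4, a proteasome ATPase, at 0.10, against a median of 1.07. For Rps27l they were Atp5g1, of the ATP synthase, at 0.12, Cox5b, of cytochrome c oxidase, at 0.13 and Frat1, an inhibitor of GSK3, at 0.15, against a median of 1.21. The difference was 0.39 between Aen and Rps27l, 2.99 between Plk2 and Aen and 3.15 between Plk2 and Rps27l. Rps27l ranked 478 among the named genes by closeness to Aen, and Aen ranked 276 by closeness to Rps27l, so each had many closer genes than the other. The 9 points share the scaling of the libraries, and the measure is a description.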

How the data were processed

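Messenger RNA of sorted mouse bone marrow cells was sequenced after Trizol extraction with a NEBNext Ultra kit, per the labels' protocols. The submitters' processing notes name mm10, Bowtie2, STAR and DESeq without roles or versions; no source used here gives the counting tool, the annotation, the scaling or why these genes were kept. The deposited values are normalized counts, that is, a signal the authors scaled library by library, for 2402 genes in 9 unnamed rows. The planned limma comparisons between groups were not run, since no row has a sample.

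Each library's values were whole multiples of 1 step within a tolerance of 0.1 for 100% of values, which gave reads. Genes had to reach 10 normalized counts in 2 or more libraries, and 1 was added before ratios were taken over many genes. Chi-square tests (scipy 1.17.1, Python 3.11.15) were adjusted at 0.05 and, like the position calls, tested on data simulated with counting error only. The simulation says nothing of biological variation. Intervals are exact at 95% and cover counting error only. Scalings, splits, pseudocounts and left-out libraries were varied. The members, lists and splits were chosen with earlier results of these data known. Named genes were the members, their relatives, all measured p53 list genes, the 3 highest by median of the immediate-early, S phase and G2/M lists, and the 3 nearest genes per member. Genes outside that rule are named as exceptions.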

Additional observations from a re-analysis of the deposited data

How the results depend on the processing

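No paired analysis was possible because the rows carry no sample names or replicate numbers, so the planned fits with and without a replicate block were not run. Splitting at Ly6a of 500 or 2000, at Procr of 500 or at Itga2b of 20000 gave the same 2 libraries. The ratio of nearest values of Plk2 (10.04 with 1 added) was 4.28 under quantile normalization and between 10.04 and 94.1 with 1 library left out. That of Aen (0.822) was 1, an overlap, when scaled to the table total, 0.644 under median of ratios and 0.507 to 0.822 with 1 library left out (0.507 without library 4). That of Rps27l (0.762) was 0.936, 0.608 and 0.560 to 0.762 in the same settings. The range of Aen was 1.84-fold when scaled to the table total, 6.61-fold under median of ratios and 2.50-fold without library 3. That of Rps27l was 2.54-fold, 9.52-fold and 4.29-fold. The cause was not tested. Shifts of whole libraries against the deposited values were taken on the log2 scale, relative to the median shift of the 9 libraries. So measured, scaling to the table total shifted libraries 3 and 4 by 0.65 and 0.50. Median of ratios shifted them by -0.60 and -0.33. Genes above numbered 720 under quantile normalization (1193 as deposited), genes below 560 when scaled to the table total (954), and p53 targets below 2 (5). The chi-square test called 2311 genes, 2351 without the filter, and 2317 and 2254 under the 2 other whole-library scalings. The adjusted p of Plk2 over the 7 Ly6a-low libraries was 0.0563 when scaled to the table total, 0.50 under median of ratios and 0.36 to 0.59 with 1 of them left out. The overlap of Aen was the only position of the 3 genes lost in the settings run, and no direction turned. The scalings of the chi-square test and of the p53 list were added after the data were seen. Depth limits Plk2 most, with 2 to 16 reads in each Ly6a-low library.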

Other observations

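A pair of genes named for induction by p53 was outside the lists and was noticed after the values had been seen. Trp53i11 had 1348 and 1170 normalized counts in libraries 3 and 4, against 83.7 to 481 in the Ly6a-low libraries. Trp53i13 had 335 and 278, against 52.99 to 122. Both lay above, as did 51.0% of the 2341 genes that passed the filter. Among the Ly6a-low libraries both were highest in libraries 8 and 9, the libraries in which Rps27l was lowest. The share of all genes with that pattern was not counted, so it does not tie the pair to Rps27l.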
